A study of Homo sapiens with 18 samples.

Results

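The 10 genes described here, YAP1, TEAD1, CCN1, CCN2, ANKRD1, CRIM1, AMOTL2, AJUBA, LATS2 and PTPN14, are YAP, a TEAD factor and genes known as their outputs. They were taken by Ensembl identifier from the 20263 genes of the count table, and 10 of 10 were found. The study sequenced total RNA from wild-type cells under 3 human cancer line labels: the liver line MHCC-97H, the breast line MDA-MB-231 and the colorectal line HCT-116. The cells received 20 nM H3B-8800, a small molecule that binds the splicing factor SF3B1 and modulates splicing, or its solvent DMSO, for 24 h. All cultures grew in high-glucose DMEM with 10% fetal bovine serum, so serum was present in the DMSO groups as well. Each of the 6 groups held 3 libraries, of 28232315 to 41488278 counts. The labels do not state separate cultures, so p-values measure only the spread between these libraries, which may be technical. Groups carry the line name given in the labels.

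YAP1 is a transcriptional coactivator that does not bind DNA itself. It acts through TEAD factors, which recognise the sequence GGAATG or its reverse complement CATTCC. The Hippo kinases phosphorylate LATS1 and LATS2, LATS kinases phosphorylate YAP1, and phosphorylated YAP1 stays in the cytoplasm. CCN1, CCN2 and ANKRD1 are widely used readouts of nuclear YAP activity, while AMOTL2, AJUBA, LATS2 and PTPN14 encode proteins that act back on YAP or on its kinases. YAP activity is set largely by phosphorylation and location, which RNA counts do not measure.

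In GENCODE release 29 on GRCh38 all 10 are protein-coding genes, and the counts are per gene. The annotation places YAP1 (ENSG00000137693) at chr11:102110461-102233423, plus strand and TEAD1 (ENSG00000187079) at chr11:12674591-12944483, plus strand. The secreted proteins are CCN1 (ENSG00000142871) at chr1:85580761-85583962, plus strand, and CCN2 (ENSG00000118523) at chr6:131948176-131951373, minus strand. It places ANKRD1 (ENSG00000148677) at chr10:90912096-90921276, minus strand, and CRIM1 (ENSG00000150938) at chr2:36355926-36551135, plus strand. The scaffold and LIM genes are AMOTL2 (ENSG00000114019) at chr3:134355874-134375479, minus strand, and AJUBA (ENSG00000129474) at chr14:22971174-22982642, minus strand. The kinase and phosphatase genes are LATS2 (ENSG00000150457) at chr13:20973032-21061547, minus strand, and PTPN14 (ENSG00000152104) at chr1:214348696-214552449, minus strand.

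The promoter windows of the members show how they differ in TEAD motif content, which none of the count comparisons used. RefSeq promoter windows on GRCh38.p14, from 250 bases before to 50 bases after a transcript start, were given for 7 members, with 9 windows in all. TEAD1, CCN1 and CRIM1 have no window in the table. The letters GGAATG, searched on both strands, occurred in at least 1 window of 7 of these 7 genes, against 16.7% of the 27305 genes with windows. They occurred in 7 of the 9 windows, against 14% of 35116 windows. Most of these genes were chosen as known outputs of YAP and TEAD, so these shares are a description and not an independent test. CCN2 had 3 matches, a number reached by 0.165% of genes, and ANKRD1 had 2, a number reached by 1.7% of genes. The 250 bases before the start of these genes are shown because they hold more than 1 match each, given in capitals. CCN2 lies on the minus strand at chr6:131951373-131951622 and ANKRD1 on the minus strand at chr10:90921088-90921337.
CCN2: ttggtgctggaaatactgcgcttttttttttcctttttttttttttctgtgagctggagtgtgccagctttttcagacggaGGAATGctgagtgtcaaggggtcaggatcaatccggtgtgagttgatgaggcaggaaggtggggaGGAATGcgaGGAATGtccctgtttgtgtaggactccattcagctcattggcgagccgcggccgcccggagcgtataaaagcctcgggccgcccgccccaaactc
ANKRD1: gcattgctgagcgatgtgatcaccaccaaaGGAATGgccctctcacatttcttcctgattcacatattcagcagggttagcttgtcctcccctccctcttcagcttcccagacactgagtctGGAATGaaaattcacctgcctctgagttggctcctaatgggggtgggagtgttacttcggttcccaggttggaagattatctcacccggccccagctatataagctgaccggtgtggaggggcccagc

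The CCN2 matches began 169, 104 and 95 bases before the start, and the ANKRD1 matches 220 and 128 bases before it. The other 5 genes had 1 match each, shown with 12 bases on either side so that orientation and flanks can be compared. PTPN14 (chr1:214551785-214551814, minus strand) and AMOTL2 (chr3:134374499-134374528, minus strand) carried it as CATTCC on the strand of the gene. YAP1 (chr11:102110273-102110302, plus strand), AJUBA (chr14:22976884-22976913, minus strand) and LATS2 (chr13:21061560-21061589, minus strand) carried it as GGAATG. The match lay 200 bases before the start in PTPN14, 69 in AMOTL2, 162 in YAP1 and 59 in AJUBA. AMOTL2 and AJUBA each have windows at 2 starts. Their distances refer to the downstream start, and the window at the upstream start held 0 matches. In LATS2 it began at base 10 after the start, and without the bases after the start 6 of the 7 genes held a match, against 14.3% of genes.
PTPN14: cctcccgggccgCATTCCtccccgcccccg
AMOTL2: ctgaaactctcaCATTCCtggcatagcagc
YAP1: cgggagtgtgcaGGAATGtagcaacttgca
AJUBA: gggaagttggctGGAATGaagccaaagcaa
LATS2: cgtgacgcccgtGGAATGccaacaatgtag

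The AP-1 motif TGANTCA was searched in the same windows because AP-1 often sits beside TEAD at enhancers. It was found in ANKRD1 alone of the 7 genes, as TGATTCA, against 9.37% of genes. The SRF motif known as the CArG box was in 0 of 9 windows, against 1.29% of all windows. A match is a description of letters in a window and not a measured binding site.

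**Figure D1:**
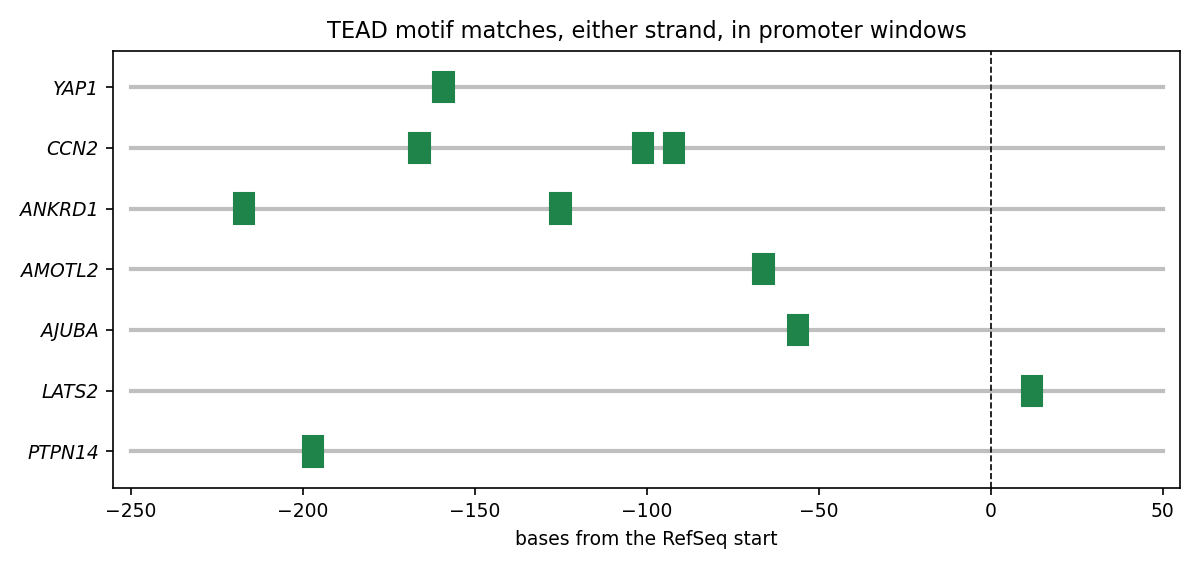
Positions of TEAD motif matches on either strand in the promoter windows of the 7 members with a window. The x axis gives bases from the RefSeq start, grey lines are the window, and green boxes are matches. AMOTL2 and AJUBA have a window at each of 2 starts, drawn on 1 line. CCN2 has 3 boxes, ANKRD1 has 2 and the others have 1 each.

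The libraries were checked against their line labels before any comparison. The 12 libraries given as HCT-116 or MDA-MB-231 had a common profile: between their DMSO groups 5 of 14234 genes passed the test, or 0.0351%, and 0 of the 10 members did. In that test, edgeR's quasi-likelihood test with Benjamini-Hochberg adjustment at 0.05, 588 genes had an unadjusted p under 0.05 and 0 of these were members. DESeq2 and limma voom also called 0 members. Summed levels of 7 intestinal epithelium markers were 1544 to 1655 CPM (counts of a gene relative to the TMM-scaled library size) in these 12 libraries, with 1 marker at 0, against 2.68 to 3.53 CPM in the 6 libraries labelled MHCC-97H. Summed levels of 7 liver markers were 0 to 0.232 CPM in the MHCC-97H libraries, where 6 of the 7 had no counts, against 24.6 to 38.8 CPM in the other 12. In the DMSO libraries the sums of intestinal markers were 1544 to 1578 CPM under MDA-MB-231 and 1554 to 1594 CPM under HCT-116. These markers do not bear out the breast line label, and the origin of the libraries was not tested. Values under MDA-MB-231 and HCT-116 are therefore given side by side and not as evidence from separate lines. HCT-116 replicate 2 stood apart from the other 2 libraries of its group under both treatments, with a mean chi-square per gene of 40.8 to 61.8 against them and 22.3 to 27.3 between the other 2.

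All 10 members passed the filter on low counts, ANKRD1 only through the groups where it is present. Compared per kilobase of exon, YAP1 was the most abundant member in every DMSO group, at 22.4 ± 1.00 CPM per kilobase under MHCC-97H, 33.1 ± 9.32 under MDA-MB-231 and 38.2 ± 2.32 under HCT-116 (SD, n = 3 each). Under MHCC-97H the order below it was CCN1 (10.6 ± 0.954), CRIM1 (7.69 ± 0.210) and LATS2 (6.53 ± 0.228). AJUBA, PTPN14 and AMOTL2 followed between 2.59 and 2.86 CPM per kilobase and did not differ beyond their spread. TEAD1 (0.762 ± 0.0731) and CCN2 (0.750 ± 0.0508) did not differ beyond their spread either. This depended on the length used. Per kilobase of the longest transcript TEAD1 had 0.924 ± 0.0886 and CCN2 0.750 ± 0.0508, and the 2 were apart. ANKRD1 had 0 counts in all 6 MHCC-97H libraries, which allows up to 0.0154 CPM, the level of 3 counts over the 6 libraries, for counting error only. Under HCT-116 the order of means below YAP1 was CRIM1 (13.4 ± 1.40), TEAD1 (6.53 ± 4.84), AJUBA (4.68 ± 0.601) and AMOTL2 (3.89 ± 0.395). The rank of TEAD1 is not settled, since its libraries had 98.9, 9.74 and 92.7 CPM. CCN2 (2.59 ± 0.377), CCN1 (2.17 ± 0.295) and PTPN14 (1.98 ± 0.450) came next with overlapping spread, then LATS2 (1.35 ± 0.0650) and ANKRD1 (0.309 ± 0.0503). Of the secreted matricellular proteins, CCN1 was thus far above CCN2 per kilobase under MHCC-97H, and the levels of both had overlapping spread under HCT-116.

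**Figure D2:**
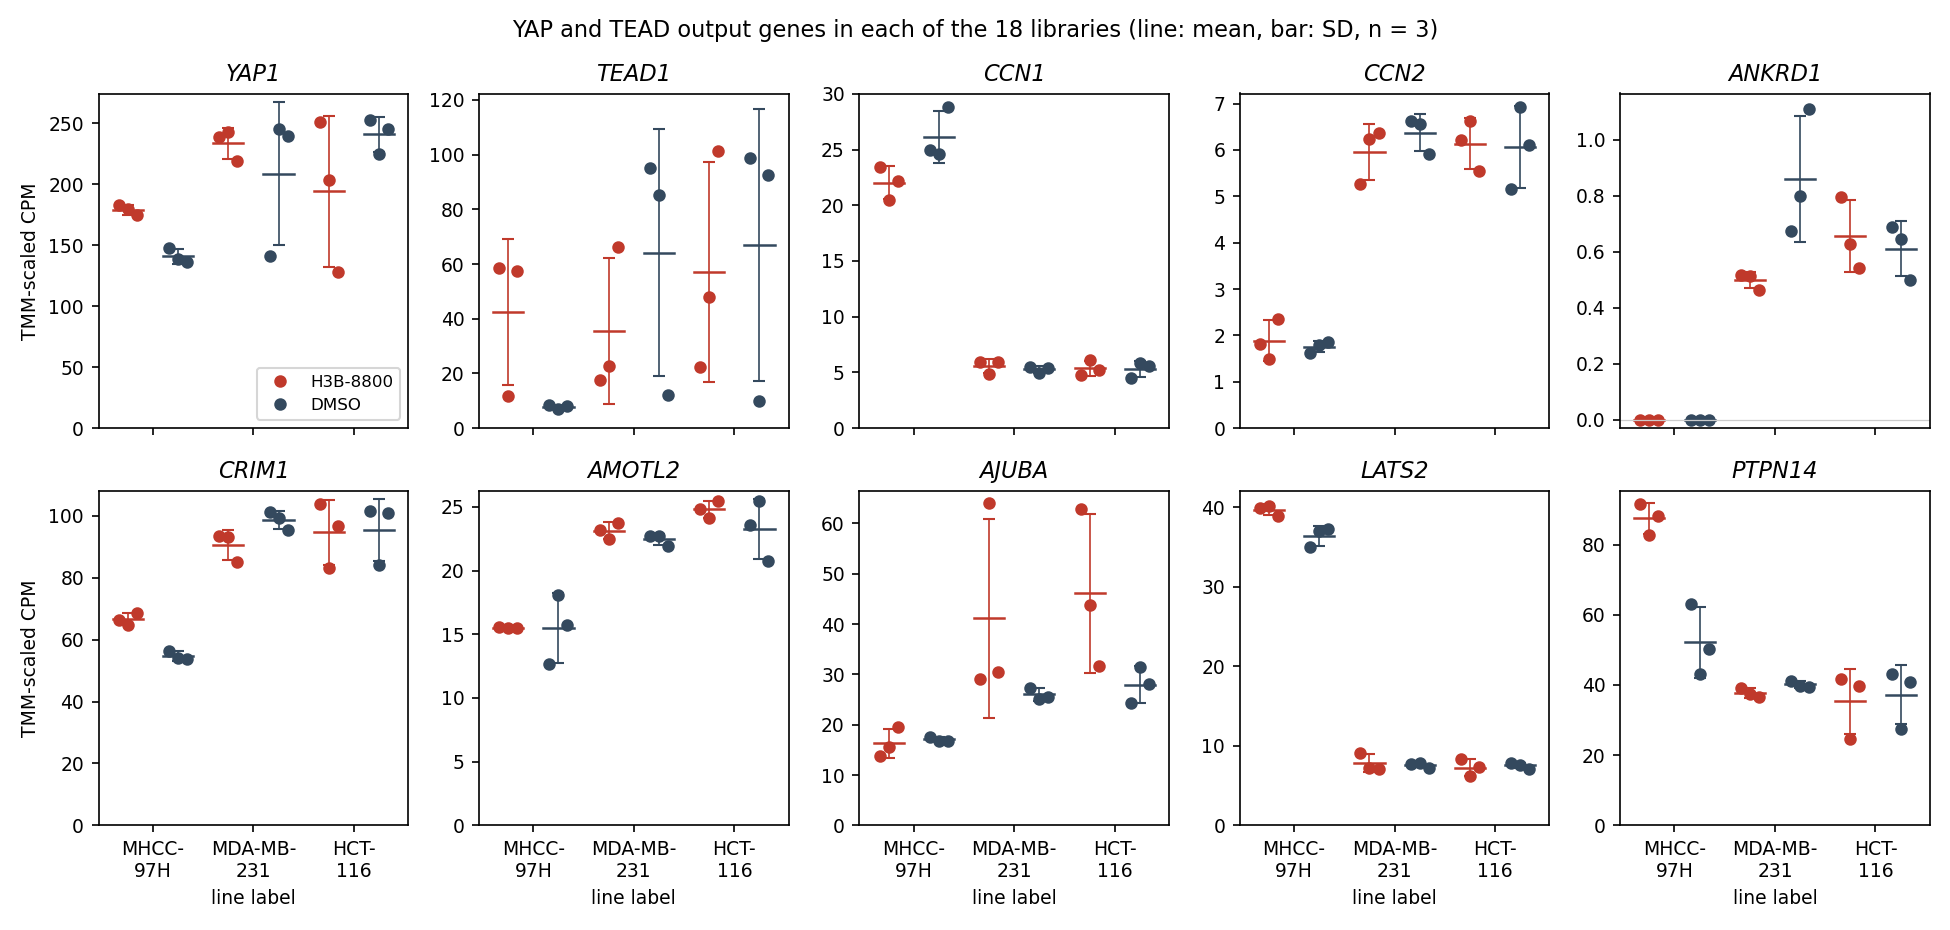
TMM-scaled CPM of the 10 members in each of the 18 libraries, a panel per gene, with its own linear y axis. H3B-8800 libraries are red and DMSO libraries dark grey, points run from replicate 1 to 3 within a group, and lines and bars are the mean and SD of 3 libraries. LATS2 and CCN1 are high under MHCC-97H, ANKRD1 is at 0 there, and TEAD1 is split within 5 of the 6 groups.

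Between line labels without drug, 8 of the 10 members were called in MHCC-97H against MDA-MB-231, where 82.7% of all genes were, 39.5% higher and 43.2% lower. Against HCT-116 10 of 10 were called, where 82.5% of all genes were, 39.5% higher and 43% lower. ANKRD1, with no counts under MHCC-97H, passed the filter through the other labels and had to differ, and without it 7 of 9 and 9 of 9 members were called. The shares are therefore near the background, and the comparisons share the MHCC-97H DMSO libraries. CCN1 and LATS2 were higher under MHCC-97H, and CCN2, ANKRD1, TEAD1, CRIM1, YAP1 and AMOTL2 were lower, in both comparisons. The median log2 fold change of the 9 members without ANKRD1 was -0.57 and -0.71 against MDA-MB-231 and HCT-116, where all genes had medians of -0.09 and -0.08. In bulk RNA, a larger share of cells with a transcript and more of it per cell cannot be told apart. Scaling by library totals alone moved the median of all genes to -0.37 and -0.34, and member values moved down with it without changing sign.

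CCN1, a secreted matricellular protein and immediate output of YAP, had 24.9, 24.6 and 28.8 CPM in the MHCC-97H DMSO libraries. In the MDA-MB-231 DMSO libraries it had 5.46, 4.94 and 5.39 CPM, and in the HCT-116 DMSO libraries 4.501, 5.87 and 5.60 CPM. The lowest MHCC-97H library was above every library of the other labels. The log2 fold change was 2.31 (SE 0.13, edgeR adjusted p = 8.1e-11) against MDA-MB-231 and 2.30 (SE 0.13, edgeR adjusted p = 8.7e-11) against HCT-116.

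CCN2, the related connective tissue growth factor, ran the other way. It had 1.62, 1.79 and 1.85 CPM in the MHCC-97H DMSO libraries. The MDA-MB-231 DMSO libraries had 6.64, 6.57 and 5.92 CPM and the HCT-116 DMSO libraries 5.16, 6.93 and 6.10 CPM. Groups were fully separate, and the log2 fold changes were -1.86 (SE 0.17, edgeR adjusted p = 3.5e-08) and -1.79 (SE 0.17, edgeR adjusted p = 5.6e-08). The exons of CCN2 overlap AL133346.1, and the strand setting of the counting is not given, so reads of the 2 genes may mix. CCN1 and CCN2 kept these directions in all 30 alternatives of each comparison, with log2 fold changes of 2.03 to 2.39 for CCN1 and -2.14 to -1.66 for CCN2.

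ANKRD1, a nuclear cofactor with ankyrin repeats, had 0 counts in the 3 MHCC-97H DMSO libraries. It had 0.674, 0.800 and 1.11 CPM in the MDA-MB-231 DMSO libraries and 0.689, 0.646 and 0.499 CPM in the HCT-116 DMSO libraries. With 3 counts over the MHCC-97H group as the floor, it was at least 25.03-fold lower than under MDA-MB-231 and at least 17.8-fold lower than under HCT-116. These levels are low, near 1 CPM or less wherever the gene was detected. CCN2 and ANKRD1, the members whose windows hold more than 1 TEAD motif match, were both lower under MHCC-97H. ANKRD1 passed the filter through the other labels and so had to differ. Of the members with 1 match, YAP1, AMOTL2 and AJUBA had negative log2 fold changes in both comparisons, and LATS2 and PTPN14 positive ones. The part of these letters in the levels was not tested.

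CRIM1, a transmembrane protein with cysteine-rich repeats that binds bone morphogenetic proteins, had 56.5, 54.2 and 53.7 CPM in the MHCC-97H DMSO libraries. It had 101, 99.4 and 95.3 CPM under MDA-MB-231 and 102, 84.1 and 101 CPM under HCT-116. No MHCC-97H library reached the range of the other labels, and the log2 fold changes were -0.85 (SE 0.08, edgeR adjusted p = 8.9e-08) and -0.80 (SE 0.08, edgeR adjusted p = 1.7e-07). With the trend of fold change on GC content and exonic length removed they were -0.15 and -0.13, still called at edgeR adjusted p = 0.0173 and 0.036.

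LATS2, the kinase that phosphorylates YAP and is itself an output of YAP, had 35.0, 37.1 and 37.3 CPM in the MHCC-97H DMSO libraries. It had 7.76, 7.85 and 7.27 CPM under MDA-MB-231 and 7.82, 7.65 and 7.13 CPM under HCT-116. All MHCC-97H libraries were above all others, and the log2 fold changes were 2.26 (SE 0.11, edgeR adjusted p = 2.0e-11) and 2.27 (SE 0.11, edgeR adjusted p = 1.8e-11). LATS1, its paralog, went the other way, at 12.9 ± 2.23 CPM in MHCC-97H DMSO libraries, against 27.9 ± 2.78 CPM under MDA-MB-231 and 28.2 ± 6.40 CPM under HCT-116 (SD, n = 3 each). Its log2 fold changes were -1.11 (SE 0.17) and -1.12 (SE 0.17), called in all 30 alternatives of each comparison, but with the trend on GC content and length removed they were only -0.27 (edgeR adjusted p = 0.0388) and -0.29 (edgeR adjusted p = 0.0254).

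AMOTL2, an angiomotin family scaffold that holds YAP at junctions, had 12.7, 18.1 and 15.8 CPM in the MHCC-97H DMSO libraries. It had 22.7, 22.7 and 21.9 CPM under MDA-MB-231 and 23.6, 25.4 and 20.7 CPM under HCT-116. The groups did not overlap, with log2 fold changes of -0.53 (SE 0.10, edgeR adjusted p = 0.00020) and -0.59 (SE 0.10, edgeR adjusted p = 8.1e-05).

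AJUBA, a LIM protein that binds and restrains LATS kinases, had 17.6, 16.9 and 16.8 CPM in the MHCC-97H DMSO libraries. It had 27.4, 25.1 and 25.6 CPM under MDA-MB-231 and 24.3, 31.5 and 28.1 CPM under HCT-116. Here too the groups were separate, but the call depended on the comparison, at -0.61 (SE 0.28, edgeR adjusted p = 0.0537) and -0.71 (SE 0.28, edgeR adjusted p = 0.0266). Leaving out any of 5 libraries (MHCC-97H DMSO replicates 1, 2 and 3, HCT-116 DMSO replicates 2 and 3) ended the call against HCT-116, at edgeR adjusted p = 0.051 to 0.0797. That call was also lost with limma voom (adjusted p = 0.0540), with the trend on GC content and length removed (-0.56, edgeR adjusted p = 0.0718), with that removal and the replicate block (edgeR adjusted p = 0.0848), and without both HCT-116 replicate 2 libraries (-0.59, edgeR adjusted p = 0.113). Leaving out any of 5 H3B-8800 libraries (MDA-MB-231 replicates 1, 2 and 3, HCT-116 replicates 1 and 3) gave a call against MDA-MB-231, at edgeR adjusted p = 0.0093 to 0.046. These were among 7 of 30 alternatives that called AJUBA in that comparison.

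PTPN14, a tyrosine phosphatase that binds YAP and restrains it, had 63.1, 43.1 and 50.2 CPM in the MHCC-97H DMSO libraries. It had 41.2, 39.8 and 39.5 CPM under MDA-MB-231 and 43.1, 27.5 and 40.9 CPM under HCT-116, where the groups met at 43.1 CPM. The log2 fold changes were 0.38 (SE 0.19, edgeR adjusted p = 0.0742) and 0.49 (SE 0.19, edgeR adjusted p = 0.0250). The second of these was lost without MHCC-97H DMSO replicate 1 (0.326, edgeR adjusted p = 0.138) or without HCT-116 DMSO replicate 2 (0.309, edgeR adjusted p = 0.127), and in the fit on the libraries of these 2 labels alone (edgeR adjusted p = 0.0566). The comparison with MDA-MB-231 was called by DESeq2 (0.435, adjusted p = 0.0205), with a block for the replicate number (0.356, edgeR adjusted p = 0.0294) and without MHCC-97H DMSO replicate 2 (edgeR adjusted p = 0.0342), HCT-116 DMSO replicate 2 (0.0425) or HCT-116 H3B-8800 replicate 2 (0.0191). PTPN14 has the longest exonic length of the members, 18756 bases, and removing the trend on GC content and length gave 1.44 and 1.52, both called. With library totals as scale it had 0.10 and 0.23, neither called (edgeR adjusted p = 0.650 and 0.283).

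**Figure D3:**
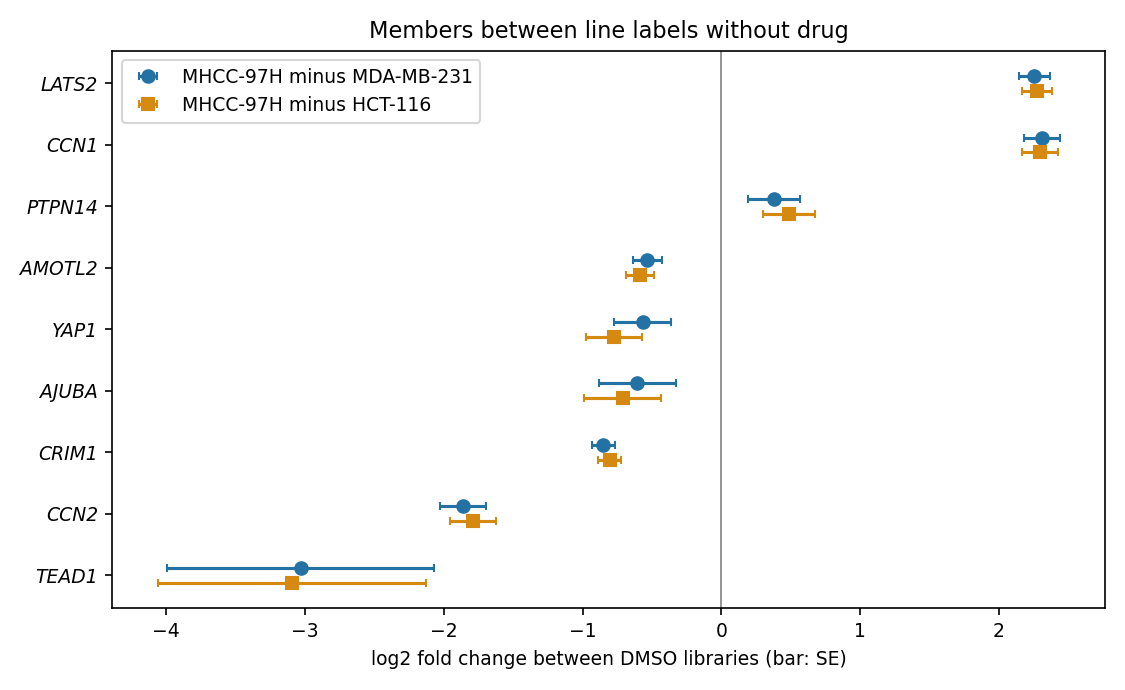
Log2 fold change of 9 members in MHCC-97H DMSO libraries over MDA-MB-231 (blue circles) and HCT-116 (orange squares) DMSO libraries, with bars of 1 SE. ANKRD1 is not drawn, because its MHCC-97H libraries have 0 counts. LATS2 and CCN1 lie near 2.3, CCN2 near -1.8 and TEAD1 near -3 with the widest bars.

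YAP1 itself had 148, 139 and 136 CPM in the MHCC-97H DMSO libraries. It had 141, 245 and 240 CPM under MDA-MB-231 and 253, 224 and 245 CPM under HCT-116. MDA-MB-231 DMSO replicate 1 lay within the MHCC-97H range, and the other 5 libraries lay above it. The log2 fold changes were -0.57 (SE 0.20, edgeR adjusted p = 0.0185) and -0.77 (SE 0.20, edgeR adjusted p = 0.00269). With the trend on GC content and length removed they were 0.19 (edgeR adjusted p = 0.432) and -0.04 (edgeR adjusted p = 0.867), so the direction of YAP1 turned in the comparison with MDA-MB-231. Leaving out MHCC-97H DMSO replicate 3, MDA-MB-231 DMSO replicate 2 or MDA-MB-231 DMSO replicate 3 also ended the call against MDA-MB-231, at edgeR adjusted p = 0.0508 to 0.0847. The exons of YAP1 overlap the gene ENSG00000254422.

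TEAD1, the DNA-binding partner, varied widely within 5 of the 6 groups, MHCC-97H DMSO being the exception. Its MHCC-97H DMSO libraries had 8.51, 7.03 and 7.97 CPM. The MDA-MB-231 DMSO libraries had 95.1, 85.2 and 12.2 CPM, and the HCT-116 DMSO libraries 98.9, 9.74 and 92.7 CPM. Each of these last groups held 2 libraries above 85 CPM and 1 library close to the MHCC-97H level, though all lay above it. The log2 fold changes were -3.03 (SE 0.96, edgeR adjusted p = 0.00922) and -3.10 (SE 0.97, edgeR adjusted p = 0.00821). Limma voom gave -2.55 (adjusted p = 0.101) and -2.50 (adjusted p = 0.108) with no call, and removing the trend on GC content and length gave -2.07 (edgeR adjusted p = 0.0531) and -2.13 (edgeR adjusted p = 0.0475).

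The ratio of the highest to the lowest library within a group was 3 or more for TEAD1 in 5 of the 6 groups, the 6 ratios running from 1.21 in MHCC-97H DMSO libraries to 10.1 in HCT-116 DMSO libraries. For the 7 other members averaging at least 5 CPM, it reached 3 in 0 groups. Among 10625 genes averaging at least 5 CPM, the median ratio was 1.12 to 1.22 by group, and 1.67% to 2.2% of genes reached 3. A ratio of 3 or more in at least 4 of the 6 groups was found in 61 genes, or 0.574%. The low TEAD1 libraries did not follow a replicate number or a treatment, and what sets them apart was not tested.

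Of the other TEAD genes, TEAD2 was lower under MHCC-97H, as TEAD1 was, and TEAD3 and TEAD4 were higher. TEAD3 had 33.3 ± 2.11 CPM in MHCC-97H DMSO libraries, against 12.5 ± 1.00 CPM under MDA-MB-231 and 12.6 ± 2.03 CPM under HCT-116 (SD, n = 3 each). Its log2 fold changes of 1.41 (SE 0.13) and 1.40 (SE 0.13) were called in all 30 alternatives of each comparison, and were 0.84 and 0.83 with the trend on GC content and length removed. TEAD4 was also higher, by 0.79 (SE 0.11, edgeR adjusted p = 7.2e-06) and 0.80 (SE 0.11, edgeR adjusted p = 6.3e-06), but only by 0.08 and 0.09 with no call once that trend was removed. TEAD2 had log2 fold changes of -0.62 (SE 0.16) and -0.75 (SE 0.16), called in all 30 alternatives, which became -1.11 and -1.24 without the trend. WWTR1, which encodes TAZ, the paralog of YAP, was lower by the same test, at -0.69 (SE 0.07) in both comparisons, and turned to 0.17 (edgeR adjusted p = 0.0478) and 0.13 (edgeR adjusted p = 0.113) without the trend.

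H3B-8800 was then compared with DMSO under each label. Under MHCC-97H, 2 of the 10 members were called, PTPN14 and CRIM1, both higher with the drug, where 27.6% of all genes were called, 12.9% higher and 14.7% lower. The readouts CCN1, CCN2 and ANKRD1 were not among them, with log2 fold changes of -0.25 for CCN1 and 0.10 for CCN2 and no counts of ANKRD1 in either group. The H3B-8800 libraries lay clear of the DMSO libraries for 6 members, YAP1, TEAD1, LATS2, PTPN14 and CRIM1 above and CCN1 below, where 47.6% of all genes did so, 19.6% above and 28% below. The median log2 fold change over the 9 members with counts was 0.12, where all genes had -0.06. Fold changes under this label followed transcript features across genes, Spearman's rho being -0.52 for GC content and 0.36 for length of exons. In the 12 other libraries together these were 0.34 and -0.19, of the opposite sign. Gene counts do not separate spliced transcripts from those with skipped exons or kept introns.

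PTPN14 had 91.5, 82.6 and 88.3 CPM in the MHCC-97H H3B-8800 libraries, against 63.1, 43.1 and 50.2 CPM in the DMSO libraries. All treated libraries were above all controls, and the log2 fold change was 0.75 (SE 0.19, edgeR adjusted p = 0.0103). It was called in all 30 alternatives, at 0.365 to 0.907, the lowest with the trend on GC content and length removed (edgeR adjusted p = 0.0322). The exons of PTPN14 overlap ENSG00000228470 and KRT18P12.

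CRIM1 had 66.3, 64.8 and 68.7 CPM in the MHCC-97H H3B-8800 libraries, against 56.5, 54.2 and 53.7 CPM in the DMSO libraries. The groups did not overlap, and the log2 fold change was 0.28 (SE 0.08, edgeR adjusted p = 0.0203). It was 0.18 (edgeR adjusted p = 0.0404) with the trend on GC content and length removed. The call was lost without MHCC-97H DMSO replicate 2 (edgeR adjusted p = 0.0610) or 3 (0.0696), or without replicate 3 of the treated group (0.0600). Over the 18 libraries the deviations of PTPN14 and CRIM1 from their group means had a Pearson correlation of 0.88, given as a description of libraries that share depth and composition. It was the highest of all pairs of members without ANKRD1, and the other pairs ran from -0.62 to 0.52.

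TEAD1 had 58.5, 11.8 and 57.4 CPM in the MHCC-97H H3B-8800 libraries, against 8.51, 7.03 and 7.97 CPM in the DMSO libraries. Replicate 2 of the treated group was near the controls and the other 2 were far above them. The log2 fold change of 2.44 (SE 0.95) missed the threshold, at edgeR adjusted p = 0.0691. It passed with DESeq2 (2.45, adjusted p = 0.0239), in a fit on the 6 MHCC-97H libraries alone (2.496, edgeR adjusted p = 0.0498) and without HCT-116 DMSO replicate 2 (2.44, edgeR adjusted p = 0.0436).

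YAP1 had 183, 180 and 175 CPM in the MHCC-97H H3B-8800 libraries, against 148, 139 and 136 CPM in the DMSO libraries. The groups did not overlap, yet the log2 fold change of 0.35 (SE 0.20) had an edgeR adjusted p of 0.228 in the fit over 18 libraries, where the spread of YAP1 under the other labels counts too. In the fit on the MHCC-97H libraries alone it was 0.41 with an edgeR adjusted p of 0.00183. With the trend on GC content and length removed it was 0.15 (edgeR adjusted p = 0.761).

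The readouts and the remaining feedback members gave small differences under MHCC-97H, none of which passed. CCN1 had 23.4, 20.5 and 22.2 CPM in the H3B-8800 libraries, against 24.9, 24.6 and 28.8 CPM in the DMSO libraries, a log2 fold change of -0.25 (SE 0.12, edgeR adjusted p = 0.141). CCN2 had 1.81, 1.49 and 2.36 CPM with the drug, against 1.62, 1.79 and 1.85 CPM in DMSO, with overlapping groups (0.10, SE 0.17, edgeR adjusted p = 0.714). LATS2 had 40.0, 40.2 and 38.9 CPM with the drug, against 35.0, 37.1 and 37.3 CPM in DMSO (0.12, SE 0.10, edgeR adjusted p = 0.416), and was called only in the fit on the MHCC-97H libraries alone (0.18, edgeR adjusted p = 0.0487). AMOTL2 averaged 15.5 ± 0.0422 CPM in the H3B-8800 libraries and 15.5 ± 2.74 CPM in the DMSO libraries (SD, n = 3 each). AJUBA averaged 16.3 ± 2.87 CPM with the drug and 17.1 ± 0.427 CPM in DMSO (SD, n = 3 each).

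**Figure D4:**
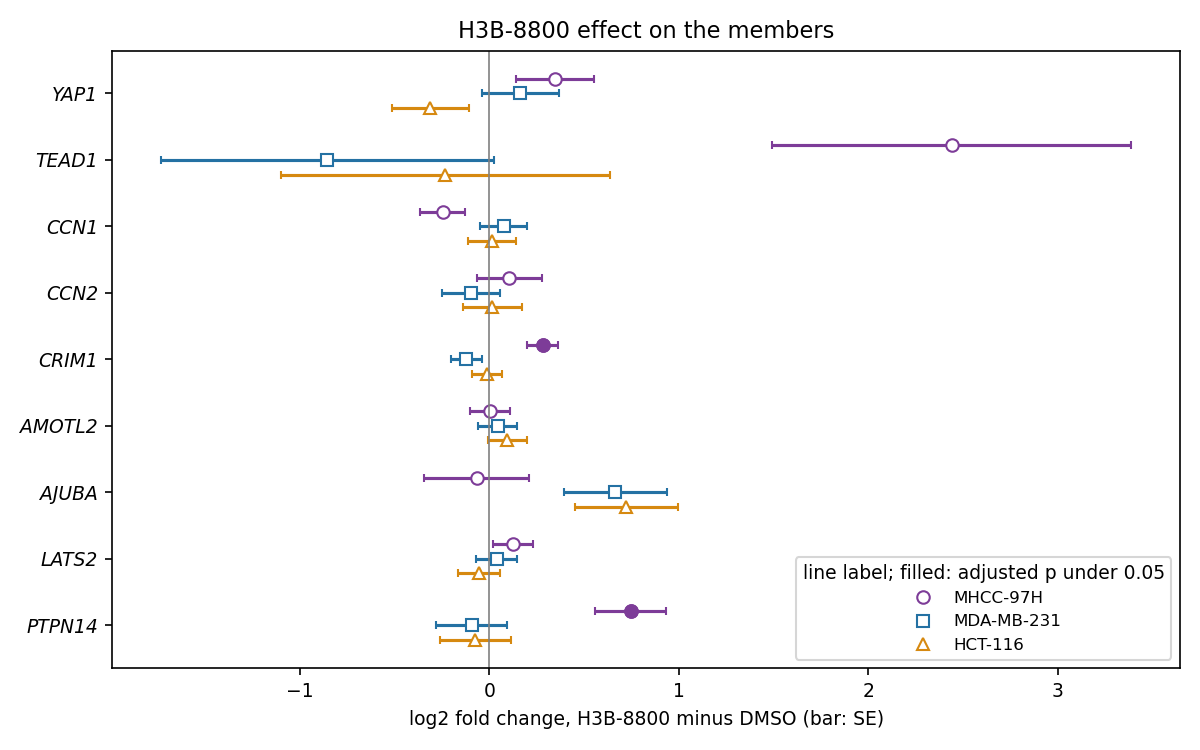
Log2 fold change of 9 members in H3B-8800 over DMSO libraries under each line label, with bars of 1 SE. Filled symbols passed at an edgeR adjusted p under 0.05. Only CRIM1 and PTPN14 under MHCC-97H are filled, and TEAD1 has the largest value, 2.44, with the widest bars. ANKRD1 is not drawn.

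Under MDA-MB-231 and HCT-116, 0 of the 10 members were called by edgeR, where 0.0351% of genes were called under each label. At an unadjusted p under 0.05 there were 1024 genes under MDA-MB-231, 2 of them members, and 655 under HCT-116, 1 of them a member. In a fit of the 12 libraries with the label as a term, 0 members were called where 0.00753% of 13284 genes were, with 901 genes and 1 member at an unadjusted p under 0.05. DESeq2, limma voom and every other alternative run also called 0 members in each of these comparisons, with HCT-116 replicate 2 and without it.

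AJUBA was the member with the smallest unadjusted p in the 12 libraries. It had 28.997, 63.9 and 30.6 CPM in the MDA-MB-231 H3B-8800 libraries, against 27.4, 25.1 and 25.6 CPM in the DMSO libraries. Under HCT-116 it had 62.9, 43.8 and 31.6 CPM with the drug, against 24.3, 31.5 and 28.1 CPM in DMSO. The groups did not overlap under either label, as was the case for 18.5% of all genes under MDA-MB-231 and 7% under HCT-116, and 3 of the 6 treated libraries were well above the rest. The log2 fold changes were 0.66 (SE 0.27, edgeR adjusted p = 0.652) and 0.72 (SE 0.27, edgeR adjusted p = 0.963), and 0.69 (SE 0.21, edgeR adjusted p = 0.671) over the 12 libraries together. Under MHCC-97H its log2 fold change was -0.07 (SE 0.28).

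ANKRD1 had 0.516, 0.514 and 0.465 CPM in the MDA-MB-231 H3B-8800 libraries, against 0.674, 0.800 and 1.11 CPM in the DMSO libraries. The groups did not overlap, as was the case for 18.5% of all genes, and the log2 fold change was -0.78 (SE 0.32, edgeR adjusted p = 0.661). Under HCT-116 it had 0.796, 0.627 and 0.542 CPM with the drug, against 0.689, 0.646 and 0.499 CPM in DMSO, with overlapping groups.

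TEAD1 and YAP1 moved between libraries of the same group under these labels. TEAD1 had 17.5, 22.8 and 66.2 CPM in the MDA-MB-231 H3B-8800 libraries, against 95.1, 85.2 and 12.2 CPM in DMSO, and 22.3, 47.8 and 101 CPM in the HCT-116 H3B-8800 libraries, against 98.9, 9.74 and 92.7 CPM in DMSO. YAP1 had 239, 243 and 219 CPM in the MDA-MB-231 H3B-8800 libraries, against 141, 245 and 240 CPM in DMSO. It had 251, 203 and 128 CPM in the HCT-116 H3B-8800 libraries, against 253, 224 and 245 CPM in DMSO. The single low libraries, 141 CPM in a DMSO group and 128 CPM in a treated group, lay on opposite sides of the comparison. PTPN14 had 41.6, 24.6 and 39.8 CPM in the HCT-116 H3B-8800 libraries, against 43.1, 27.5 and 40.9 CPM in DMSO, and the low value of each group was replicate 2, which stood apart over all genes. CRIM1 likewise had its lowest values there, 83.3 CPM with the drug and 84.1 CPM in DMSO. Under MDA-MB-231, PTPN14 had 39.1, 37.5 and 36.5 CPM with the drug, against 41.2, 39.8 and 39.5 CPM in DMSO. CRIM1 had 93.7, 93.2 and 85.2 CPM with the drug there, against 101, 99.4 and 95.3 CPM in DMSO. For both genes the treated libraries lay below the controls, as was the case for 9.86% of all genes, with no call. The other members, CCN1, CCN2, LATS2 and AMOTL2, had log2 fold changes between -0.10 and 0.09 under these labels.

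Whether the drug effect differed between labels was tested directly. The test over the 3 labels called 0 members with edgeR, where 15.4% of genes were called, with 2 members at an unadjusted p under 0.05. These were PTPN14 (edgeR adjusted p = 0.0536) and CRIM1 (edgeR adjusted p = 0.0540). DESeq2 called both (adjusted p = 0.00752 and 0.00934), limma voom called PTPN14 (adjusted p = 0.0455), and with a block for the replicate number under each label edgeR called both (adjusted p = 0.000889 and 0.00309). In the pairwise difference of effects, MHCC-97H minus MDA-MB-231, both were called with edgeR, where 20.2% of genes were, at 0.84 (SE 0.26, adjusted p = 0.0376) for PTPN14 and 0.40 (SE 0.12, adjusted p = 0.0253) for CRIM1. In MHCC-97H minus HCT-116, where 13.2% of genes were called, 0 members passed with edgeR and 3 had an unadjusted p under 0.05. PTPN14 differed there by 0.82 (SE 0.26, edgeR adjusted p = 0.0524) and CRIM1 by 0.29 (SE 0.12, edgeR adjusted p = 0.0971), and both were called by DESeq2 (adjusted p = 0.0109 and 0.0384) and with the replicate block (edgeR adjusted p = 0.000971 and 0.00735). Removing the trend on GC content and length took the 0.84 of PTPN14 to 0.35 (edgeR adjusted p = 0.159). Leaving out any of 11 libraries (all MHCC-97H and MDA-MB-231 libraries except MHCC-97H DMSO replicate 1) ended that call, at edgeR adjusted p = 0.0532 to 0.0894. The call of CRIM1 was lost without any of 6 (MHCC-97H DMSO replicates 2 and 3 and H3B-8800 replicate 3, MDA-MB-231 DMSO replicates 1 and 2 and H3B-8800 replicate 3), at edgeR adjusted p = 0.0502 to 0.0693. Without both HCT-116 replicate 2 libraries the test over the 3 labels called both members (edgeR adjusted p = 0.0017 for PTPN14 and 0.00229 for CRIM1). Between MDA-MB-231 and HCT-116, where 0.0351% of genes were called, the drug effect differed for 0 members by edgeR, 0 of which had an unadjusted p under 0.05.

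The wider pathway was followed under MHCC-97H in lists that had been chosen with earlier results of these data known, so their counts are descriptions beside the 12.9% of genes called higher and 14.7% called lower. Of 15 further genes of published YAP signatures, 4 rose with H3B-8800 and 0 fell, with a median log2 fold change of -0.00. TGFB2, a secreted growth factor, had 8.23 ± 0.401 CPM with the drug and 4.93 ± 0.675 CPM in DMSO (SD, n = 3 each), a log2 fold change of 0.74 (SE 0.11, edgeR adjusted p = 0.00143). MYOF, a membrane repair protein, rose by 0.60 (SE 0.10), ASAP1, an ARF GTPase-activating protein, by 0.78 (SE 0.15) and NT5E, the ectonucleotidase CD73, by 0.32 (SE 0.09). The call of NT5E was lost on leaving out any of 4 MHCC-97H libraries (DMSO replicates 2 and 3, H3B-8800 replicates 2 and 3), at edgeR adjusted p = 0.0523 to 0.0899. The other 3 kept their calls in all alternatives run.

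Of the cofactors and other TEAD genes, 6 of 8 were tested, 1 rose and 1 fell, with a median of -0.12. VGLL3, a TEAD-binding cofactor, had 10.0 ± 0.938 CPM with the drug and 5.53 ± 2.61 CPM in DMSO (0.86, SE 0.30, edgeR adjusted p = 0.0450), and leaving out any of 11 of the 18 libraries ended its call, at edgeR adjusted p = 0.0502 to 0.162. With the trend on GC content and length removed it was at 0.42 with no call (edgeR adjusted p = 0.251), and the call was also lost with no filter and in the fit on the MHCC-97H libraries alone. TEAD4 fell by 0.38 (SE 0.11, edgeR adjusted p = 0.0207), to 15.1 ± 0.715 CPM in H3B-8800 libraries, against 19.6 ± 1.62 CPM in DMSO libraries (SD, n = 3 each). Its call was lost without MHCC-97H DMSO replicate 1 or 3 or H3B-8800 replicate 1 or 2 (edgeR adjusted p = 0.0538 to 0.0739), with library totals as scale, and with the trend on GC content and length removed (-0.08, edgeR adjusted p = 0.655). WWTR1 had a log2 fold change of 0.19 (SE 0.07, edgeR adjusted p = 0.0563), which DESeq2 (0.192, adjusted p = 0.0254) and edgeR with the replicate block (0.188, adjusted p = 0.0174) called, and -0.16 with that trend removed (edgeR adjusted p = 0.183). TEAD3 (-0.20, edgeR adjusted p = 0.254) and TEAD2 (-0.19, edgeR adjusted p = 0.396) did not pass.

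Of 20 Hippo kinases and their adaptors, 5 rose and 1 fell, with a median of 0.18. TAOK1, which activates the Hippo kinases, had 36.5 ± 0.374 CPM with the drug and 15.7 ± 3.12 CPM in DMSO (1.22, SE 0.23, edgeR adjusted p = 0.00310; SD, n = 3 each). MOB1B, a LATS coactivator, rose by 0.90 (SE 0.22), LATS1 by 0.71 (SE 0.17), TNIK by 0.54 and TAOK3 by 0.48 (SE 0.09), while MINK1, a related kinase, fell by 0.22. With the trend on GC content and length removed TAOK1 had 0.70 (edgeR adjusted p = 0.00110) and MOB1B 0.59 (edgeR adjusted p = 0.00887), both called, whereas the calls of LATS1 (0.35, edgeR adjusted p = 0.0518), TNIK (0.35, edgeR adjusted p = 0.0826), TAOK3 (0.17, edgeR adjusted p = 0.223) and MINK1 (-0.12, edgeR adjusted p = 0.138) were lost. The calls of TNIK (MHCC-97H DMSO replicates 2 and 3, H3B-8800 replicates 1 and 2) and MINK1 (DMSO replicates 1, 2 and 3, H3B-8800 replicate 2) also ended on leaving out any of 4 libraries, at edgeR adjusted p = 0.0741 to 0.142 for TNIK and 0.0572 to 0.126 for MINK1.

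Of 16 tested junction and polarity genes, 6 rose and 3 fell, with a median of 0.26. FAT1, an atypical cadherin upstream of Hippo, had 23.8 ± 1.55 CPM with the drug and 9.93 ± 1.67 CPM in DMSO (1.26, SE 0.18, edgeR adjusted p = 0.00106; SD, n = 3 each). TJP1, the tight junction scaffold ZO-1, rose by 1.08 (SE 0.21), FAT4, another atypical cadherin, by 1.19, PATJ by 0.62, DLG1, a polarity scaffold, by 0.44 (SE 0.10) and PALS1 by 0.43. LLGL2, a polarity protein, fell by 0.26 (SE 0.05), SCRIB by 0.30 and LLGL1 by 0.29. With the trend on GC content and length removed, 4 of these 9 genes were called, FAT1, TJP1, FAT4 and LLGL2. The other 5 were not, DLG1 at 0.01 (edgeR adjusted p = 0.988), PALS1 at 0.07 (0.630), PATJ at 0.27 (0.102), SCRIB at -0.13 (0.132) and LLGL1 at -0.15 (0.141). Leaving out MHCC-97H DMSO replicate 3 ended the calls of FAT4, PATJ, PALS1, SCRIB and LLGL1, DMSO replicate 2 those of FAT4, PATJ and PALS1, H3B-8800 replicate 1 those of PATJ and PALS1, and H3B-8800 replicate 2 those of PALS1, SCRIB and LLGL1, at edgeR adjusted p = 0.0501 to 0.103. FAT1 and TJP1 were called in all alternatives run, and LLGL2 was not called with library totals as scale (edgeR adjusted p = 0.0760).

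Of 16 tested SRF and MRTF genes, which share cytoskeletal outputs with YAP, 1 rose and 4 fell, with a median of -0.18. CALD1, which binds actin and tropomyosin, rose by 0.54. TPM2, a tropomyosin, fell by 0.28 (SE 0.05), FLNA, which crosslinks actin, by 0.29 (SE 0.07), ACTN1, an actinin, by 0.29 (SE 0.08) and SRF by 0.22 (SE 0.06). SRF turned to 0.03, TPM2 to -0.04 and CALD1 to 0.17 with the trend on GC content and length removed, with no call, and with library totals as scale FLNA (-0.15), ACTN1 (-0.16) and SRF (-0.08) were not called. The calls of ACTN1 (edgeR adjusted p = 0.0557 to 0.0708) and SRF (edgeR adjusted p = 0.0679 to 0.0696) were also lost without MHCC-97H DMSO replicate 3 or H3B-8800 replicate 2, and that of CALD1 (edgeR adjusted p = 0.0864 to 0.111) without either of these or H3B-8800 replicate 3. Over the 12 libraries with the other labels, 0 of the 69 tested genes of these lists were called by edgeR, DESeq2 or limma voom, and 4 had an unadjusted p under 0.05 with edgeR.

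**Figure D5:**
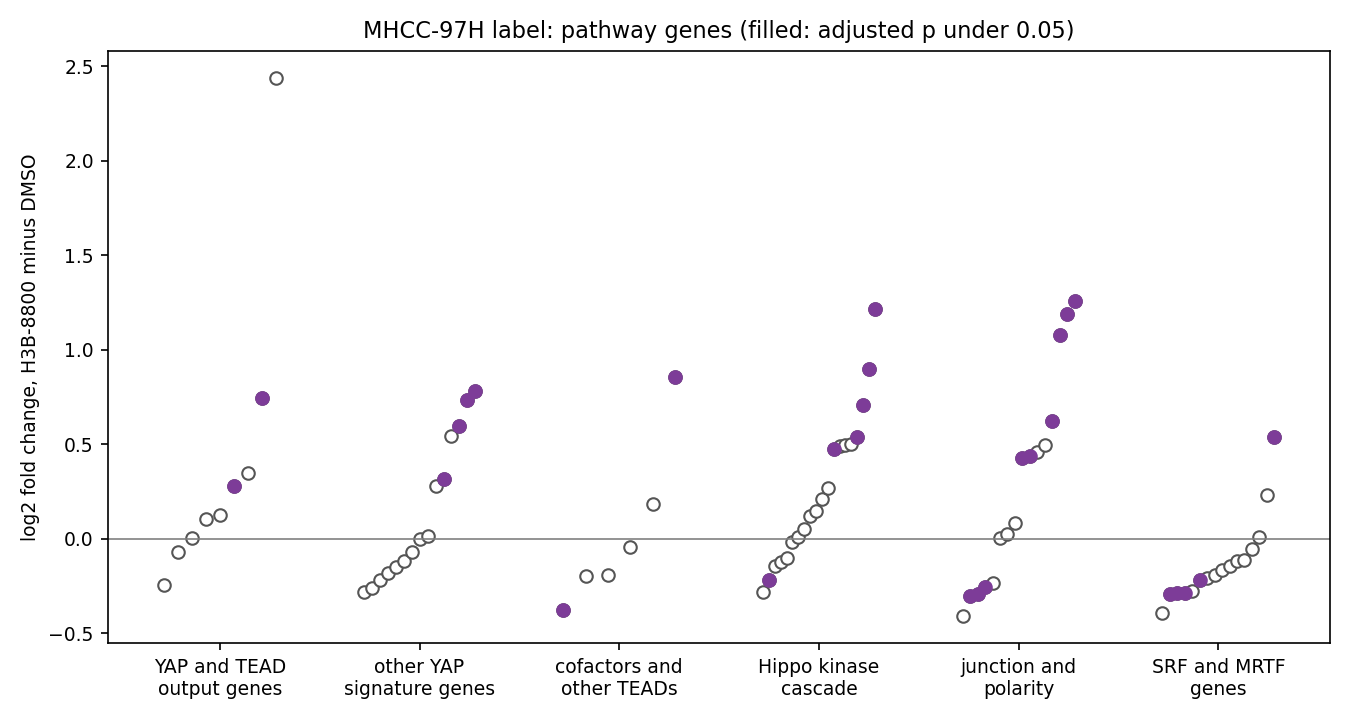
Log2 fold change in H3B-8800 over DMSO libraries under MHCC-97H for each tested gene of the members and 5 further lists, sorted within a list. Filled points passed at an edgeR adjusted p under 0.05. Filled points above 0.5 number 4 in the Hippo kinase list, 4 in the junction list and 3 in the YAP signature list, and the SRF list holds 4 filled points below 0. ANKRD1 is not drawn.

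Markers of other cell types were counted beside these comparisons. Summed levels of 8 mesenchymal markers were 1439 to 1513 CPM in the MHCC-97H H3B-8800 libraries and 1541 to 1596 CPM in the MHCC-97H DMSO libraries, against 8225 to 9454 CPM in the 12 libraries of the other labels, where 1 of the 8 was at 0. The sum follows FN1, at 128 ± 8.56 CPM in the MHCC-97H DMSO libraries, against 8426 ± 146 CPM under MDA-MB-231 and 9071 ± 302 CPM under HCT-116 (SD, n = 3 each). The single markers were split: 4 of the 7 tested were called higher under MHCC-97H than under either other label (VIM, TWIST1, ZEB2 and SNAI2) and 3 lower (FN1, CDH2 and ZEB1). VIM, the intermediate filament vimentin, had 1371 ± 20.3 CPM in MHCC-97H DMSO libraries, against 18.7 ± 0.872 CPM under MDA-MB-231 and 20.3 ± 0.730 CPM under HCT-116 (SD, n = 3 each). Their part in the differences of CCN1, CCN2, ANKRD1 and LATS2 between labels was not tested.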

How the data were processed

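RNA was sequenced from 18 libraries in 6 groups of 3. Values are raw read counts per gene as the authors deposited them. Reads were handled with fastp and HISAT2 on GRCh38, per the submitters' processing notes. Versions of these tools, library kit, strandedness, counting tool and annotation were not given in the sources used here. Positions, exonic lengths and GC content come from GENCODE release 29 (GRCh38), where 20224 of 20263 identifiers were found, and promoter windows from RefSeq on GRCh38.p14.

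Counts were scaled by TMM and filtered with filterByExpr, which left 14234 genes, in R 4.3.3 with edgeR 4.0.16. The robust quasi-likelihood test was fitted with 1 mean per group over all 18 libraries, and p-values were adjusted by Benjamini-Hochberg over all genes tested, with a threshold of 0.05. A further fit used the 12 HCT-116 and MDA-MB-231 libraries with label and treatment as terms (13284 genes). The steps were checked on simulated counts. Each SE given with edgeR was derived from the test, as the absolute log2 fold change divided by the square root of its F statistic. Floors of 3 counts cover counting error only.

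The alternatives were relative log expression and upper-quartile scaling, library totals, no filter, at least 50 counts in 3 libraries, DESeq2 1.42.0, limma 3.58.1 voom, only the libraries of the labels compared, a replicate block, removal of the trend on GC content and exonic length (splines with 5 degrees of freedom), that removal with the block, and leaving out each library. Leaving out both HCT-116 replicate 2 libraries was chosen after seeing the data. Same-numbered libraries were compared by the Pearson correlation of their deviations from the group means over 9233 genes. It was 0.191, 0.469 and 0.145 under HCT-116, 0.162, 0.104 and 0.017 under MDA-MB-231, and -0.035, 0.134 and 0.023 under MHCC-97H. The main fit used no pairing, and the replicate block was fitted under every label. Whether a shared number marks a pair is not given in the labels.

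All 10 members are named, with up to 4 genes of each further list in order of adjusted p under MHCC-97H, and WWTR1, TEAD2, TEAD3, TEAD4 and LATS1 in any case. TNIK, MINK1, FAT4, PATJ, PALS1, SCRIB, LLGL1 and CALD1 complete the counts, and these and the single mesenchymal markers were chosen after their values were seen. The members and lists were chosen with earlier results of these data known. Of the genes most like CCN2 over the libraries, 1 is not reported here.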

Additional observations from a re-analysis of the deposited data

Results flagged for a closer look

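The effect of H3B-8800 on PTPN14 and CRIM1 differed between 2 of the labels in a pairwise test of the difference itself. The MHCC-97H minus MDA-MB-231 difference of log2 fold changes was 0.838 (SE 0.26, edgeR adjusted p = 0.0376), from 0.75 under MHCC-97H and -0.09 under MDA-MB-231. For CRIM1 the same difference was 0.404 (SE 0.12, edgeR adjusted p = 0.0253), from 0.28 under MHCC-97H and -0.12 under MDA-MB-231. In this comparison 20.2% of all genes were called. The test over the 3 labels called neither PTPN14 (edgeR adjusted p = 0.0536) nor CRIM1 (0.0540), and MHCC-97H minus HCT-116 called neither as well (0.0524 and 0.0971). Alternatives gave a call over the 3 labels in 14 of 29 cases for PTPN14 and 11 of 29 for CRIM1. For MHCC-97H minus HCT-116 they did so in 13 of 30 and 6 of 30. The PTPN14 call ended on leaving out any of 11 libraries and, at 0.35, with the GC and length trend removed (edgeR adjusted p = 0.159), and the CRIM1 call ended on leaving out any of 6.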

How the results depend on the processing

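Over 138 results on members and named genes, 3888 of 4110 alternatives gave the same outcome as the main fit, called or not called. This number includes results that were called in neither, so it is not a share of calls that held. Of the rest, 133 lost a call, 81 gained one, and 8 had the opposite sign where the main fit had a call. These 8 all had the GC and length trend removed. YAP1 in MHCC-97H against MDA-MB-231 turned to 0.186, and SRF under H3B-8800 in MHCC-97H to 0.0265. With the replicate block added they were 0.189 and 0.0268. WWTR1 in MHCC-97H turned to 0.167 against MDA-MB-231 (0.166 with the block) and to 0.131 against HCT-116 (0.132 with the block). With the trend removed and no block, only WWTR1 against MDA-MB-231 was still called (edgeR adjusted p = 0.0478). YAP1, SRF and WWTR1 against HCT-116 were not called there. Members called under MHCC-97H numbered 5 with only its own libraries and 1 to 3 on leaving out a library. The replicate block moved the members whose drug effect differed between labels to 2 and the other member counts by less than 1.5 times. That count was also 2 with relative log expression scaling, upper-quartile scaling, library totals, at least 50 counts, DESeq2, the trend removed with the block and both HCT-116 replicate 2 libraries left out, 1 with limma voom, and 0 to 2 on leaving out a library. Cofactors and TEAD genes called numbered 1 with no filter and 0 with the trend removed, with or without the block, and 0 to 3 on leaving out a library. With the trend removed, 3 Hippo kinase and 4 junction genes were called, and leaving out a library gave 4 to 8 Hippo kinase and 4 to 9 junction genes. SRF and MRTF genes called numbered 2 with library totals, 8 with only the MHCC-97H libraries, 2 with the trend removed, with or without the block, and 2 to 7 on leaving out a library. The causes were not tested, beyond the fewer libraries of some fits. At the depth here ANKRD1 could not be followed under MHCC-97H, and splicing was not measured.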

Other observations

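Between line labels without drug, the wider pathway lists had medians of different sign. In MHCC-97H against MDA-MB-231 DMSO libraries, 4 of 20 Hippo kinases and adaptors were called higher and 14 lower, with a median log2 fold change of -1.08, and 2 of 16 junction and polarity genes were called higher and 11 lower, with a median of -1.04. SRF and MRTF genes went the other way, with 10 of 16 called higher, 4 lower and a median of 0.59, beside 39.5% of all genes called higher, 43.2% lower and a median of -0.09. Further YAP signature genes were mixed, with 6 of 15 higher and 4 lower. Over all genes, fold changes in this comparison followed GC content and exonic length, with Spearman's rho of 0.21 and -0.21. These list counts were not rerun with that trend removed, and its part in them was not tested.

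Genes whose deviations from the group means were most like those of CCN1 over the 18 libraries were GCAT (Pearson r = 0.91), CASP2 (0.90) and CKB (0.88), among 9232 genes averaging at least 10 CPM. For CCN2 they included GIT1 (0.89) and MROH1 (0.89). For TEAD1, chosen for its spread after its values were seen, they were ATP2B4 (0.81), TGIF1 (0.79) and SVIP (0.78). These are descriptions of libraries that share depth and composition.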
